A study of Homo sapiens with 6 samples.

Results

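MTAP, CDKN2A and CDKN2B are 3 neighbouring genes at 9p21 on the short arm of chromosome 9. They were taken as a group because this stretch of DNA is reported to be deleted in SKOV3, the ovarian cancer cell line of the study, and all 3 were followed through every peak list. Their spans in the human genome build hg19 were given to the nearest kb as 64 kb for MTAP, 28 kb for CDKN2A and 8 kb for CDKN2B, within a window of 2 Mb. Of all peaks in the series, 10 of 376666 lay in the 3 spans in untreated cells, 32 of 912311 and 33 of 913199 in the 2 vorinostat lists, and 44 of 896878 and 40 of 884242 in the 2 romidepsin lists.

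The study mapped acetylation of lysine 9 of histone H3 (H3AcK9) by chromatin immunoprecipitation and sequencing in wild-type SKOV3 cells, an established line. Cells were left untreated or received vorinostat or romidepsin, 2 inhibitors of histone deacetylases, at 1 times their IC50 for 24 h. Each condition was 1 immunoprecipitated sample, and 3 input samples without antibody were not used here. The sequencing company split each treated sample into 2, so that vorinostat and romidepsin have 2 peak lists each. The 2 lists show technical spread and are not replicates, no difference between conditions could be tested, and every comparison below describes these samples alone. Both treated samples also held more and narrower peaks than the untreated one as a whole. On chromosome 9 the lists held 14999 peaks in untreated cells, 36448 and 36498 with vorinostat, and 37549 and 37393 with romidepsin, with median widths of 560, 213, 209, 226 and 223 bp in that order.

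CDKN2A encodes p16INK4a, which blocks CDK4 and CDK6 and so keeps the retinoblastoma protein active, and from a separate first exon p14ARF, which restrains MDM2 and so stabilises p53. CDKN2B encodes p15INK4b, a close relative of p16INK4a that acts on the same kinases. MTAP encodes methylthioadenosine phosphorylase, an enzyme that salvages adenine and methionine, and it is often lost together with CDKN2A in tumours. H3AcK9 marks active promoters and enhancers, and inhibitors of histone deacetylases generally raise it. A peak needs DNA that can be precipitated, so a tract that carries none under any condition is of interest in a locus reported as lost. A peak list alone cannot tell absent DNA from DNA that is present without the mark, or from DNA in which reads could not be placed.

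The promoters of the 3 genes are shown because they are where H3AcK9 would be found if the genes were active. RefSeq gives a promoter for each gene, and CDKN2A has 2 of them. Each sequence below is the 250 bases before a start site in GRCh38.p14, written 5′ to 3′ on the strand of the gene, with GC boxes (GGGCGG, or CCGCCC on the other strand) in capitals. In that build they lie at chr9:21802386-21802635 on the plus strand for MTAP and on the minus strand at chr9:21995325-21995574 (p14ARF), chr9:21974858-21975107 (p16INK4a) and chr9:22009306-22009555 (CDKN2B). No coordinate was converted between builds.
MTAP: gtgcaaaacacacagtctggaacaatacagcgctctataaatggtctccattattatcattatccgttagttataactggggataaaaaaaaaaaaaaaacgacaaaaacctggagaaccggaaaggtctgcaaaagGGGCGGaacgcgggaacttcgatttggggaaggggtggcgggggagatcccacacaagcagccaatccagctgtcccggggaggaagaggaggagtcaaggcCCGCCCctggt
CDKN2A, p14ARF start: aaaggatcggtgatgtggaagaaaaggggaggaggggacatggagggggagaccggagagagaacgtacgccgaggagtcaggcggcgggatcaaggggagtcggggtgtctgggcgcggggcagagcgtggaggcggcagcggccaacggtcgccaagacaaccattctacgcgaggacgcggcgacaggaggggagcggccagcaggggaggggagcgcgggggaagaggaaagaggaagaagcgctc
CDKN2A, p16INK4a start: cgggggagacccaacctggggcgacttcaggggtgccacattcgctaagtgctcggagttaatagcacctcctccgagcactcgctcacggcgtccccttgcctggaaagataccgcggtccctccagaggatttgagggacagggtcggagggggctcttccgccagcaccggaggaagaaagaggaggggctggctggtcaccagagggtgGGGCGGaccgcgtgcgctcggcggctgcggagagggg
CDKN2B: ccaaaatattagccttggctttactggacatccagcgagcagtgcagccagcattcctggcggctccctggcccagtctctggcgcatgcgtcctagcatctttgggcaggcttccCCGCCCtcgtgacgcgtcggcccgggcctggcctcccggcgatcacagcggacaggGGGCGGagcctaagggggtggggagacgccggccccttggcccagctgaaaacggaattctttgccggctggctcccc

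The p14ARF, p16INK4a and CDKN2B promoters were rich in CpG, with 24, 20 and 18 CpG dinucleotides in 250 bases and a GC content of 66.8%, 66.8% and 66.4%. The MTAP promoter held 11 CpG and 50% GC, the same CpG number as the median of all 35116 RefSeq promoters. A GC box, searched on both strands, was found 2 times at MTAP, 1 time at p16INK4a, 2 times at CDKN2B and not at p14ARF, and 42.6% of all promoters held at least 1. The MTAP promoter was the one of the 4 with the letters CCAAT (held by 32.0% of all promoters, both strands) and TATAAA (10.7%), 1 time each.

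Over the whole 2 Mb window, H3AcK9 peaks thinned out after MTAP, stopped before or at the 3′ end of CDKN2A and resumed beyond CDKN2B in all 5 lists. CDKN2B carried no peak in any list, and CDKN2A carried none except 1 narrow peak at its far 3′ end with romidepsin. MTAP carried peaks along its span in every list. Whether this gene is deleted in these cells was not tested. Copy number was not measured.

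**Figure D1:**
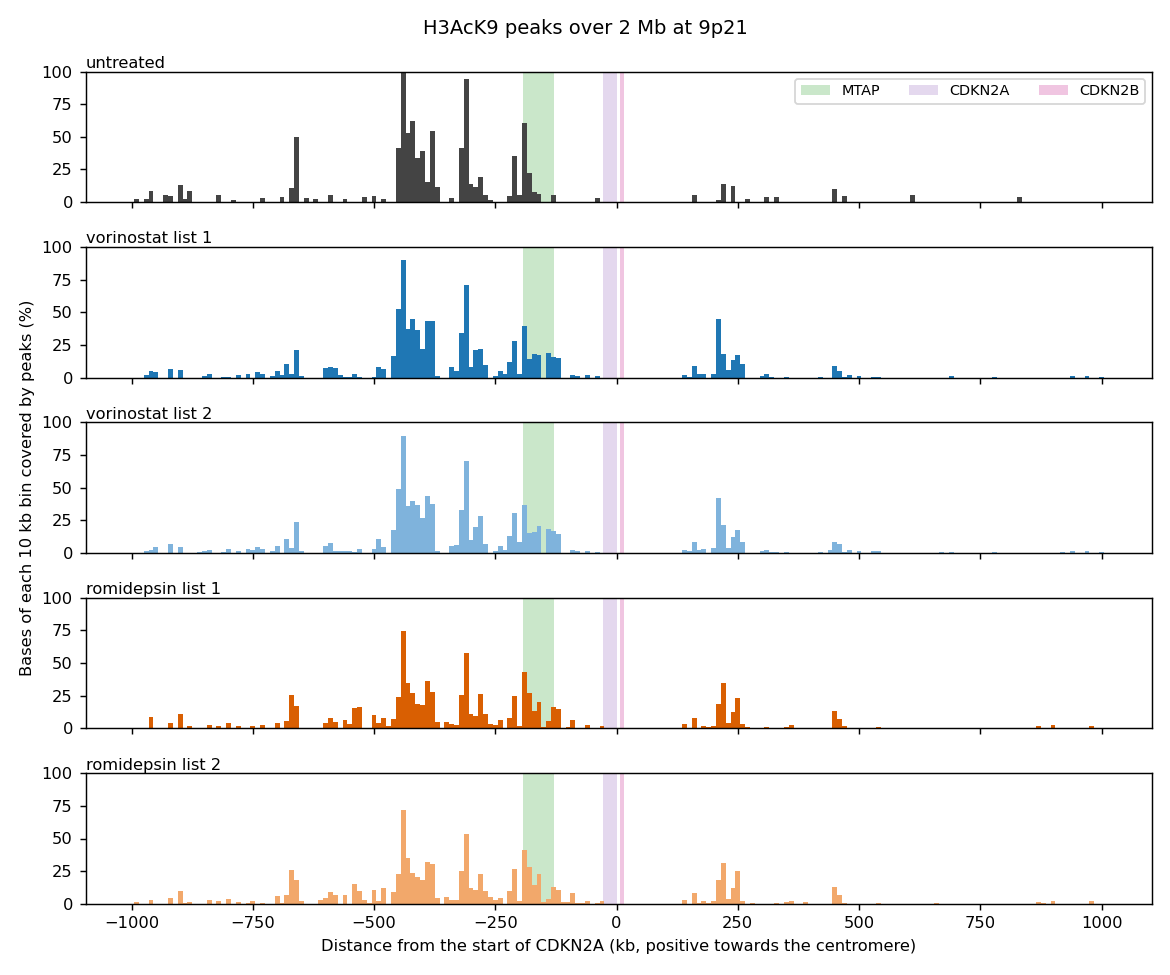
Share of bases covered by H3AcK9 peaks in each 10 kb bin (vertical axis, %) against the distance from the start of CDKN2A in kb (horizontal axis, negative towards the telomere), with 1 panel per peak list and the 3 gene spans shaded. Peaks run into the MTAP shading in all 5 panels and are missing over CDKN2B in all 5.

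MTAP was marked in untreated cells, and most of the mark lay at its start. The untreated list held 10 peaks over MTAP that covered 8924 bp, or 13.9% of the span. By far the widest was chr9:21800639-21806591, 5953 bp, which began 1362 bp before the kb in which MTAP starts and reached 4591 bp past it. The other 9 peaks, in order along the gene, were 861, 663, 339, 490, 755, 322, 127, 228 and 548 bp wide. The peak at the start thus held 51.4% of the bases covered in MTAP.

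With the inhibitors MTAP carried more peaks, and slightly more of its bases were covered. The vorinostat lists held 32 and 33 peaks that covered 11831 and 11844 bp (18.5% in both), and the romidepsin lists held 43 and 39 peaks that covered 11817 and 11663 bp (18.5% and 18.2%). Against untreated cells the mean of both lists was 3.25-fold higher in peak number with vorinostat and 4.10-fold with romidepsin, and 1.33-fold and 1.32-fold higher in covered bases. On the whole of chromosome 9 the same ratios were 2.43 and 2.50 for peak number and 0.867 and 0.959 for covered bases. More bases, by any amount, were covered in both lists in 36.2% of all 64 kb bins with an untreated peak for vorinostat and in 34.9% for romidepsin. A rise was thus not rare in the genome, but how often it reached the size seen in MTAP was not counted.

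The broad untreated peak at the MTAP start was broken up in the treated lists. Vorinostat left 5 and 4 pieces there, which covered 48.5% and 45.8% of it, and romidepsin left 5 and 5 pieces with 46.5% and 43.7%. The widest of them were chr9:21804390-21806025, 1636 bp, in both vorinostat lists, and chr9:21803309-21804639, 1331 bp, in both romidepsin lists. When peaks within 1000 bp of each other were joined, the number in MTAP came to 9 in untreated cells, 11.0 with vorinostat and 13.5 with romidepsin (means of both lists), so the rise in number rested largely on narrow neighbouring pieces.

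In the treated lists a smaller part of the covered bases lay at the start of MTAP and a larger part at its end. Other genes were not compared in this way. With its span cut into 3 equal parts, 6944 bp of the part at the start were covered in untreated cells, 5231 and 4997 bp with vorinostat, and 6351 and 6432 bp with romidepsin. In the part at the end the values were 548 bp untreated, 3110 and 3198 bp with vorinostat, and 2045 and 1483 bp with romidepsin. All 4 treated lists were therefore below the untreated list at the start of the gene and above it at the end. The longest stretch of MTAP without an untreated peak was chr9:21836824-21862581 (25.8 kb). It held 10 and 9 vorinostat peaks covering 2956 and 3235 bp, and 11 and 8 romidepsin peaks covering 1076 and 713 bp. Because the stretch was chosen for its lack of untreated peaks, the treated lists could only be equal or higher there. Of all 10 kb bins without an untreated peak, 41.3% held a peak in both vorinostat lists and 31.4% in both romidepsin lists.

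Vorinostat lists 1 and 2 covered 48.1% and 43.6% of the bases marked in untreated MTAP, and romidepsin lists 1 and 2 covered 46.2% and 46.6%. Over the 20 chromosomes with peaks in every list these shares were 42.3%, 41.9%, 45.2% and 44.7%. MTAP peaks without any untreated peak under them numbered 21 of 32 and 25 of 33 with vorinostat (65.6% and 75.8%) and 32 of 43 and 28 of 39 with romidepsin (74.4% and 71.8%), against 62.8%, 61.2%, 61% and 59.7% of all peaks of the same lists. Between the 2 lists of one sample, 20 of the 32 and 33 vorinostat peaks and 24 of the 43 and 39 romidepsin peaks had identical ends. With both lists of each drug merged, 24 of 35 vorinostat peaks overlapped a romidepsin peak and 25 of 46 romidepsin peaks overlapped a vorinostat peak, and the shared bases were 37.0% of the vorinostat and 38.4% of the romidepsin cover. Over the 20 chromosomes 49.7% of merged vorinostat peaks overlapped a romidepsin peak and 49.1% the other way round, with shared bases of 50.6% and 47.0%.

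**Figure D2:**
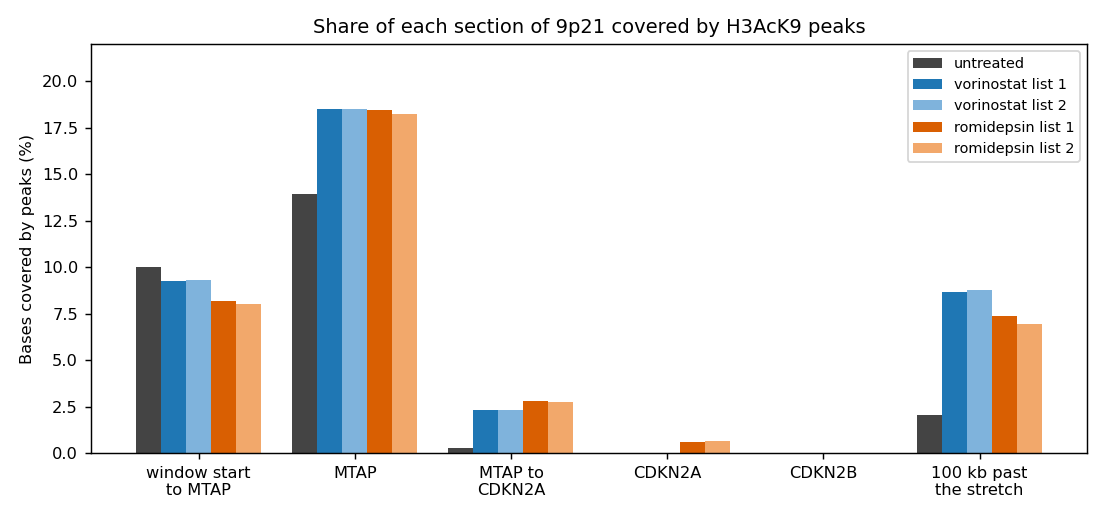
Share of bases covered by peaks (vertical axis, %) in 6 sections of 9p21 ordered from the telomeric side, with 1 bar per peak list; the last section is the 100 kb on the centromeric side of the stretch without a peak in any list. The MTAP bar of untreated cells stands at 13.9% and those of the 4 treated lists at 18.2% to 18.5%, whereas CDKN2B has no bar.

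Between MTAP and CDKN2A, 101 kb in the spans used here, peaks thinned out. Untreated cells had 1 peak there, chr9:21952764-21953082, 319 bp wide. The vorinostat lists had 7 peaks each, with identical ends, covering 2375 bp, and the romidepsin lists had 11 and 12 peaks covering 2867 and 2787 bp. In the first 10 kb after MTAP each treated list held 3 peaks and the untreated list none, and these covered 1804 bp in both vorinostat lists and 1687 and 1275 bp in the romidepsin lists. Peaks thus lay just past the MTAP span under both inhibitors, in a segment chosen after the values were seen. A gain in 1 such segment was common, since 41.3% of all 10 kb bins without an untreated peak held a peak in both vorinostat lists. For romidepsin this share was 31.4%. In the gene set GENCODE release 44 on hg38, MTAP is 135 kb long, so that peaks counted here as lying beyond it can fall in longer forms of the gene.

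CDKN2A had no peak in untreated cells and none in either vorinostat list. With romidepsin it had 1 peak in each list, chr9:21967811-21967988 (178 bp) in list 1 and chr9:21967811-21967994 (184 bp) in list 2. This peak lay within the first kb of the span at its telomeric side, where the minus-strand gene ends, and about 27.2 kb from its start, and the rest of the span up to that start carried no peak. Because the spans are rounded to the kb, it could also lie just outside the gene. No peak of at least 200 bp was found in CDKN2A in any list. Of all 28 kb bins, 26.2% had no untreated peak, and 8.2% had none in the untreated and both vorinostat lists. These bins include very long stretches without a peak in any list, which raise both shares. The shares without those stretches were not computed, and how often a gene of this length has no peak was not counted.

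CDKN2B had no peak in any of the 5 lists, and the 7 kb between the 2 genes were also without a peak in all 5. Of all 8 kb bins, 45.5% had no untreated peak and 15.5% had no peak in all 5 lists. A bin of this size without a peak was thus not rare by this count. The bins were not chosen for genes or promoters, so how often a gene of this size lacks peaks was not counted. They also include very long stretches without a peak in any list, which raise both shares. The shares without those stretches were not computed. The length of the empty stretch around CDKN2B was examined next.

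In untreated cells the peak-free stretch across CDKN2A and CDKN2B was chr9:21953083-22157756, 204.7 kb. In both vorinostat lists it was chr9:21951054-22130155, 179.1 kb, and with romidepsin it began at 21967989 or 21967995 and ended at 22130849, 162.9 kb in both lists. By length these stretches ranked 59 of 14998 on chromosome 9 in untreated cells, 25 of 36447 and 29 of 36497 with vorinostat, and 44 of 37548 and 46 of 37392 with romidepsin. The median stretch on chromosome 9 was 1834 bp untreated, 846 and 879 bp with vorinostat, and 676 and 691 bp with romidepsin. In each list the 9p21 stretch was thus among the longest of its chromosome, but not alone in its length.

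**Figure D3:**
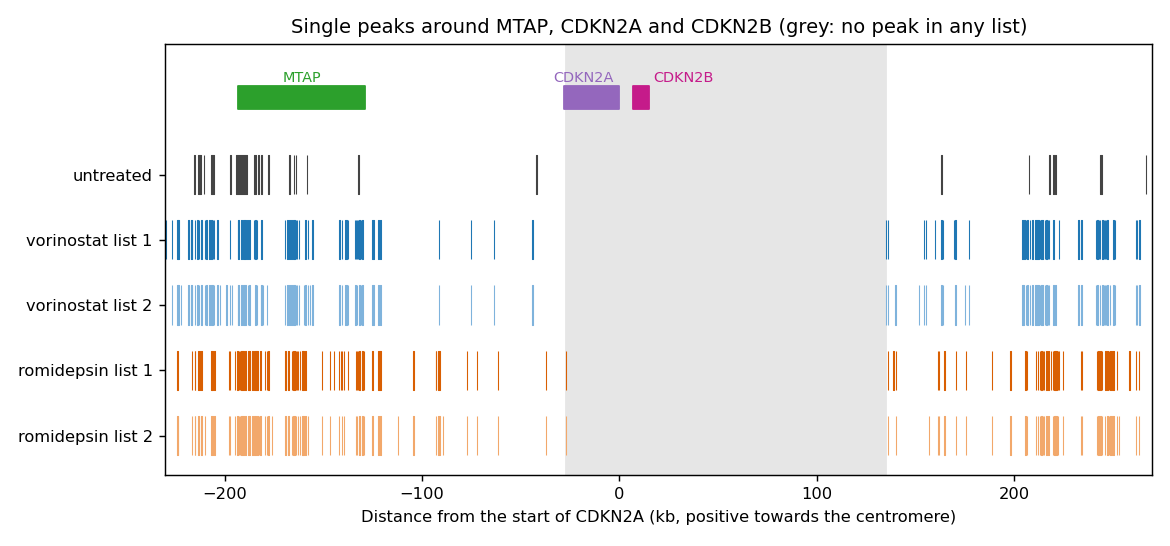
Single H3AcK9 peaks (bars, drawn to scale with a thin outline) in the 5 lists against the distance from the start of CDKN2A in kb, with the gene spans above and the stretch without a peak in any list in grey. The grey stretch holds all of CDKN2B and 96.5% of the CDKN2A span, and the treated lists show more and narrower peaks than the untreated list on both sides of it.

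The edges of the stretch were set by narrow peaks. On the telomeric side the last peak was 319 bp wide in untreated cells, 95 bp in both vorinostat lists, and 178 and 184 bp in the romidepsin lists. On the centromeric side the first peak was chr9:22157757-22158293 (537 bp) in untreated cells, chr9:22130156-22130276 (121 bp) in both vorinostat lists and chr9:22130850-22131071 (222 bp) in both romidepsin lists. The 4 treated lists resumed within 694 bp of each other, and the untreated list resumed 26.9 kb later. Each vorinostat list had 1 peak, 223 and 239 bp wide, inside the first untreated peak, and neither romidepsin list had one. With peaks under 200 bp left out, the stretch was 204.7 kb untreated, 246.4 kb with vorinostat and 197.3 kb with romidepsin. The shorter stretch with vorinostat thus depended on peaks under 200 bp and turned into a longer one without them.

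All 5 lists shared a stretch without any peak at chr9:21967995-22130155, 162161 bp. It held 100% of the CDKN2B span, 96.5% of the CDKN2A span and nothing of MTAP. On chromosome 9, 25 stretches at least this long and under 3 Mb were free of peaks in all lists, and 23 of them lay within 10 Mb of a common stretch of 3 Mb or more. The 9p21 stretch was the single one of the 25 that lay farther than 10 Mb both from such a stretch and from the first and last peak of the chromosome. The 10 Mb distance was set after the values were seen, so this place is a description. Over the 20 chromosomes with peaks in every list there were 102 common stretches this long. Of these, 35 on 14 chromosomes met that distance rule. The 9p21 length was the minimum set for the list, so the 9p21 stretch is the shortest of the 35 by definition.

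**Figure D4:**
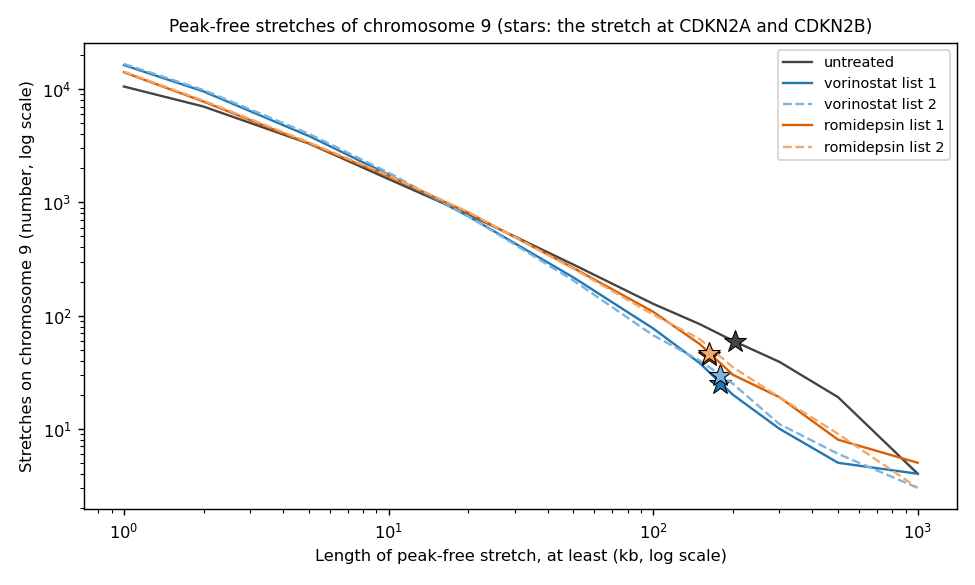
Number of peak-free stretches of chromosome 9 (vertical axis, log scale) that are at least as long as the length on the horizontal axis (kb, log scale), with 1 line per peak list; stars mark the stretch across CDKN2A and CDKN2B. The stars lie at 162.9 to 204.7 kb, where 25 to 59 stretches of chromosome 9 are as long.

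Beside the common stretch more bases were covered in the treated lists than in the untreated one. In the 100 kb on its telomeric side 319 bp were covered in untreated cells, 2375 bp in both vorinostat lists, and 3045 and 2971 bp in the romidepsin lists. In the 100 kb on its centromeric side the values were 2038 bp untreated, 8689 and 8766 bp with vorinostat, and 7377 and 6972 bp with romidepsin, and peaks numbered 5, then 30 and 30, then 29 and 27. The ratio to untreated cells on the centromeric side was 4.28 with vorinostat and 3.52 with romidepsin. More bases, by any amount, were covered in both lists of a drug in 37.8% of all 100 kb bins with an untreated peak for vorinostat. For romidepsin this share was 35.1%, and how often the rise reached the size seen here was not counted. Because the common stretch is defined by the absence of peaks and its edges by treated peaks, neither the lack of any gain inside it nor a treated peak at an edge is a separate result.

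Long runs without an untreated peak were usually broken by peaks of a treated list. Over the 20 chromosomes there were 918 runs of at least 16 bins of 10 kb without an untreated peak, and 10.5% of them still held 16 bins in a row without a peak in any list. The run at 9p21 had 19 bins, and 16 of them in a row were free of peaks in all lists. With the runs of 3 Mb or more left out, 77 of 899 runs (8.57%) did so, and the 9p21 run was at the lower end of these 77. The minimum of 16 bins was set from this run. Its place among the 10.5% and at the lower end of the 77 was therefore fixed by that choice.

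The wider window was poor in peaks in every list. Of its 200 bins of 10 kb, 142 (71.0%, exact 95% interval 64.2 to 77.2%) had no peak in untreated cells, against 41.8% of all 10 kb bins. With vorinostat the lists had 105 (52.5%, 45.3 to 59.6%) and 100 (50%, 42.9 to 57.1%) empty bins, against 25.3% and 23.2% of all bins. With romidepsin both had 102 (51%, 43.9 to 58.1%), against 31.5% and 29.4%. The intervals are Clopper-Pearson, cover counting error only and treat neighbouring bins as independent, which they are not.

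Of the 142 bins without an untreated peak, 51 (35.9%) held a peak in both vorinostat lists and 44 (31.0%) in both romidepsin lists. Over all bins without an untreated peak these shares were 41.3% and 31.4%, and on chromosome 9 alone they were 25.1% and 19.4%. Chromosome 9 has a common stretch of 3 Mb or more, whose bins hold no peak in any list and so lower its shares. Its shares without that stretch were not computed. With all such stretches left out on every chromosome used, the shares were 45.1% and 34.3%. The exact 95% intervals of the window were 28.0 to 44.4% and 23.5 to 39.3%. Of the 142 bins, 16 lay inside the common stretch, where a gain is excluded by definition. They lower the shares of the window too, and its shares without them were not computed. Whether the gain at 9p21 was high or low thus depended on the background, and no high gain can be read from it. Most of the gained bins lay on the MTAP side, with 29 and 26 of 50 empty bins gained telomeric of the common stretch and 22 and 18 of 76 gained centromeric of it. Of the 58 bins with an untreated peak, 13 (22.4%, exact 95% interval 12.5 to 35.3%) had no peak in either vorinostat list. For romidepsin this number was 7 (12.1%, 4.99 to 23.3%). Of all bins with an untreated peak, these shares were 3.42% and 5.83%, lower than in the window for both inhibitors. The intervals treat neighbouring bins as independent, which they are not, so they cannot decide whether the window differed from its background.

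Around the 3 genes the distribution was lopsided. Between the window start and MTAP, 802 kb that in GENCODE order hold HACD4, the type I interferon genes, KLHL9 and MIR31HG, peaks covered 10.0% of bases in untreated cells, 9.27% and 9.31% with vorinostat, and 8.20% and 8.02% with romidepsin. From CDKN2B to the window end, 990 kb whose next protein-coding gene is DMRTA1, they covered 0.671%, 1.59%, 1.63%, 1.51% and 1.46% in the same order. The side that was richer in untreated cells had a lower value in the treated lists, and the poorer side a higher one. Ratios of covered bases to untreated cells were 0.926 with vorinostat and 0.808 with romidepsin on the richer side. They were 2.40 and 2.21 on the poorer side, and 0.867 and 0.959 on the whole of chromosome 9. With vorinostat the richer side thus fell less than the whole chromosome. The neighbouring genes are named by their order in the hg38 annotation, and no peak was assigned to one of them. The same annotation lists CDKN2B-AS1, a long non-coding RNA gene of 134.0 kb, between CDKN2A and CDKN2B. It was not placed on the hg19 lists, so the DNA beyond CDKN2B cannot be called free of other genes.

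A looser rule that allows stray peaks gave a sparse tract, the run of 50 kb bins covered to at most 10% of the chromosome mean, with edges moved to the next peaks. It was chr9:21863130-22157756 (294.6 kb, 1 peak inside) in untreated cells and chr9:21931522-22150089 (218.6 kb) in both vorinostat lists, with 4 and 6 peaks inside. With romidepsin it began at 21933542 and was 222.8 and 218.2 kb long, with 5 and 4 peaks inside. In untreated cells the tract began inside MTAP, 2.87 kb before the end of its span, and in all treated lists it began over 60 kb past that end. This contrast rested on the settings, since with bins of 20 kb the tract began 87.1 kb past MTAP in untreated cells, 54.0 kb with vorinostat and 67.5 kb with romidepsin, and at 5% of the mean 87.1, 65.5 and 67.5 kb past it. As many as 45.4% of the 50 kb bins of chromosome 9 were this sparse in untreated cells, 40.1% and 38.6% with vorinostat, and 46.4% and 45.8% with romidepsin.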

How the data were processed

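The analysis used the deposited H3AcK9 peak lists of 3 immunoprecipitated samples (5 lists), and grouping followed the sample labels. The labels call the 2 lists of a treated sample a split of that sample, whereas the study's text also speaks of replicates, and the labels were followed. The authors aligned reads with BWA and called peaks with MACS 1.4.2 per the labels, at a p-value threshold of 1e-05 per the study's reporting summary. The files give peak positions and a deposited score whose scale is not stated, so the score served as a filter only. The labels name hg38, but chromosome names and ends in all 5 lists are those of hg19 (2426 to 6693 peaks per list lie past hg38 chromosome ends), and hg19 positions were used. Peak lists hold no read counts, so the depth behind a peak is unknown.

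Peaks sharing at least 1 bp with a span were counted, overlaps were merged before bases were summed, and treated values are means of 2 lists of 1 sample. Bins were 10 kb over the 20 chromosomes with peaks in all lists. Peaks named singly are those in gene spans with 10 or fewer per list, otherwise the widest. Members, lists and regions were chosen with earlier results of these data known; the common stretch, its flanks, the stretches in and just past MTAP, bins of gene length, runs, genome-wide overlaps and the 10 Mb rule were added after the values were seen. Scripts (Python 3.11.15, NumPy 2.4.6, pandas 2.3.3, SciPy 1.17.1) were tested on simulated peaks. Promoters came from RefSeq (GRCh38.p14) and gene order from GENCODE release 44. Pathway genes beyond the 3 were not positioned, because no hg19 annotation was used here.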

Additional observations from a re-analysis of the deposited data

How the results depend on the processing

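Lengths in kb are given as untreated, vorinostat, romidepsin. With peaks of score at least 1, the peak-free stretch was 249.5, 267.6 and 201.5, and with peaks of at least 200 bp it was 246.4 with vorinostat and 197.3 with romidepsin. The sparse tract was 204.7, 210.2 and 197.3 in bins of 20 kb, 339.4, 255.8 and 162.9 in bins of 100 kb, and 204.7, 198.6 and 197.3 at 5% of the mean. It was 365.7 untreated and 275.7 with vorinostat at 20% of the mean, 249.5, 281.1 and 201.5 at score 1, and 275.7 and 225.7 with the inhibitors at 200 bp. The 2 romidepsin lists alone gave 222.8 and 218.2. Peaks in MTAP numbered 3.0, 7.0 and 8.5 at score 1, 21.5 and 22 with the inhibitors at 200 bp, and 11.0 and 13.5 when joined across 1000 bp. The romidepsin peak of CDKN2A was kept in 1 of 2 lists at score 1 (mean 0.5) and lost at 200 bp (0.0). Empty bins of the window were 80.25%, 66.0% and 63.12% at 5 kb, 57.0%, 35.5% and 36.5% at 20 kb, 84.0%, 82.5% and 78.5% at score 1, and 70.5% and 68.0% with the inhibitors at 200 bp. Gained bins were 21.5% with vorinostat at 5 kb, 47.37% and 40.35% at 20 kb, 7.738% and 10.12% at score 1, and 16.33% and 17.69% at 200 bp. On chromosome 9 alone the background of empty bins rose to 55.86%, 41.33% and 46.0%, and without common stretches of 3 Mb or more it was 39.67%, 21.5% and 27.94%, so the gap between the window and its background was smaller against chromosome 9. CDKN2B had no peak under any alternative that kept its span, and MTAP had peaks under all. The causes of these shifts were not tested. No paired analysis was possible because the labels give 1 sample per condition. With 1 sample per condition, spread between cultures is unknown, and without reads or input the copy number of 9p21 was not measured.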

Other observations

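The longest of the 35 common peak-free stretches away from chromosome ends and from stretches of 3 Mb or more were on chromosome 6. There, 4 neighbouring stretches of 898.1 to 1440 kb lay between chr6:28476265-33421543 and added up to 4717 kb. Peaks between these 2 positions numbered 2 in untreated cells, 5 and 7 with vorinostat, and 4 and 2 with romidepsin. The longest of the 35 on any other chromosome was 453.3 kb. These stretches were picked after their lengths were seen, and why they held so few peaks was not tested.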
